A study of Homo sapiens with 12 samples.

Results

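The genes described here encode the enzymes of glycolysis, the regulators of its flux, the sensors of oxygen, and genes that cells induce when oxygen is scarce. From a list of 34 such genes, those with a CPM of at least 1 (expected counts scaled to the library total) in at least 4 of 12 libraries were kept. By this rule 33 of the 34 were described, of 12212 genes that passed the same rule among 18969 listed. CA9, a carbonic anhydrase at the cell surface and a common marker of hypoxia, was the exception, with 1, 2, 3 and 7 counts in the UNC0642 libraries, 1, 2, 4 and 8 counts in the DMSO libraries and 1, 1, 3 and 3 counts at 0 h. All 33 genes kept also had enough counts to be tested.

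The study sequenced RNA of HCT116 cells, a long-established line from a human colorectal carcinoma grown in RPMI-1640 with fetal bovine serum, in 3 groups of 4 libraries each. In the UNC0642 recovery group, cells spent 24 h in methionine-free medium with UNC0642, an inhibitor of the histone H3 lysine 9 methyltransferases EHMT1 and EHMT2, and then 24 h in medium with methionine and without the inhibitor. The DMSO recovery group went through the same steps with the vehicle DMSO. The third group is labelled 0 h, and the labels do not say whether it was taken before the methionine restriction or at its end. It thus differs from both recovery groups in time in culture. Depending on when it was taken, it may also differ in the medium, the restriction, the refeeding and the exposure to DMSO or UNC0642. These cannot be told apart. Both recovery groups share the restriction and the refeeding, and the cells are 1 line.

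Glycolysis splits glucose into pyruvate in a chain of enzyme steps that yields ATP and NADH, and lactate dehydrogenase turns pyruvate into lactate and regenerates NAD+. When oxygen is scarce, the prolyl hydroxylases encoded by the EGLN genes no longer mark HIF1A, the protein that the gene HIF1A encodes, for destruction, and it binds with its partner ARNT to DNA near genes of glucose metabolism, blood vessel growth and mitochondrial turnover. Colorectal carcinoma cells make much lactate even in the presence of oxygen. The control of HIF1A acts on the protein, which RNA sequencing does not measure.

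Library totals ran between 14658082 and 20179847 expected counts, and 12741 genes were tested. CPM below are scaled with TMM factors and are given in the order of replicates 1 to 4. A gene is called higher or lower at an adjusted p under 0.05 in edgeR's quasi-likelihood test with Benjamini-Hochberg adjustment over all genes tested, and adjusted p-values come from this test. The labels do not say whether the replicates were separate cultures, and if they were not, the p-values cover technical spread alone. The epithelial markers EPCAM, CDH1, KRT8 and KRT18 were abundant in every library, and CDX1 had no count in any. Of the 8 epithelial markers listed, with KRT20, VIL1 and CDX2 among them, 6 had enough counts to be tested. Without any count in the group were 1 after UNC0642 recovery, 1 after DMSO recovery and 2 at 0 h. The summed level of the 8 was 4648 to 4799 CPM after UNC0642 recovery, 4610 to 4720 CPM after DMSO recovery and 3961 to 4038 CPM at 0 h. Of 10 markers of blood, fibroblasts and endothelium, which summed to 28.7 to 36.33 CPM after UNC0642 recovery, 27.9 to 36.01 CPM after DMSO recovery and 20.7 to 42.45 CPM at 0 h, COL1A1 made up most, and the fibroblast collagen COL1A2 passed 1 CPM in 6 libraries (0 h replicates 1, 2 and 3, DMSO replicate 1, UNC0642 replicates 3 and 4). The libraries also fell into 7 with a long gap of 120 to 127 bases between gene length and effective length and 5 with a short gap of 101 to 106 bases, with both kinds in each group. Without the 6 COL1A2 libraries, 0 h is left with replicate 4 alone, DMSO recovery with 3 libraries and UNC0642 recovery with 2, and the short-gap libraries hold 1 DMSO library (replicate 1) and 2 of each other group. In those fits a lone library is assumed to vary like the other libraries, and each comparison rests on fewer libraries. The part of these library traits in the results was not tested beyond the values given beside them.

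The abundant enzymes of the later steps of glycolysis were lower after DMSO recovery than at 0 h, except for PKM2, which was not called, while several scarcer isozymes were higher. ALDOA, TPI1, GAPDH, PGK1, PGAM1, ENO1, LDHA and LDHB fell by 6.41% to 16.2%, and HK1, PFKL, ENO2 and ALDOC rose by 16% to 59.1%. Of the 33 genes, 8 were called higher and 10 lower in this comparison, 54.5% of them, where 44.1% of all genes tested were called (22.4% higher and 21.7% lower). The median log2 fold change of the 33 genes was 0.014, and that of all genes tested was 0.007. In bulk RNA, fewer cells of a type and less RNA per cell cannot be told apart. The share of the 33 genes called after DMSO recovery was thus somewhat above that of all genes tested, and the genes moved in both directions. Of the 15 glycolytic enzymes, 40% were lower and 26.7% higher, and both lactate dehydrogenase genes were lower. Whether these shares differ from those of all genes was not tested, and the members were chosen with earlier results of these data known. After UNC0642 recovery 11 of the 33 genes were higher and 10 lower than at 0 h, 63.6% of them. Of all genes tested, 47.0% were called (23.4% higher and 23.6% lower). Among the 15 glycolytic enzymes, 46.7% were lower and 33.3% higher in this comparison, and both lactate dehydrogenase genes were lower. The median was 0.013 for the 33 genes and 0.006 for all genes tested. The DMSO and 0 h libraries did not overlap in 17 of the 33 genes and in 38.3% of all genes tested, and the UNC0642 and 0 h libraries did not overlap in 22 of the 33 and in 40.2% of all genes tested. The recovery comparisons share the 0 h libraries, so they are not independent. With library totals in place of TMM factors, 14 were higher and 9 lower after DMSO recovery and 14 higher and 8 lower after UNC0642 recovery, and 67.5% of all calls were higher in either comparison, where 50.8% were with TMM factors after DMSO recovery and 49.8% after UNC0642 recovery.

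**Figure D1:**
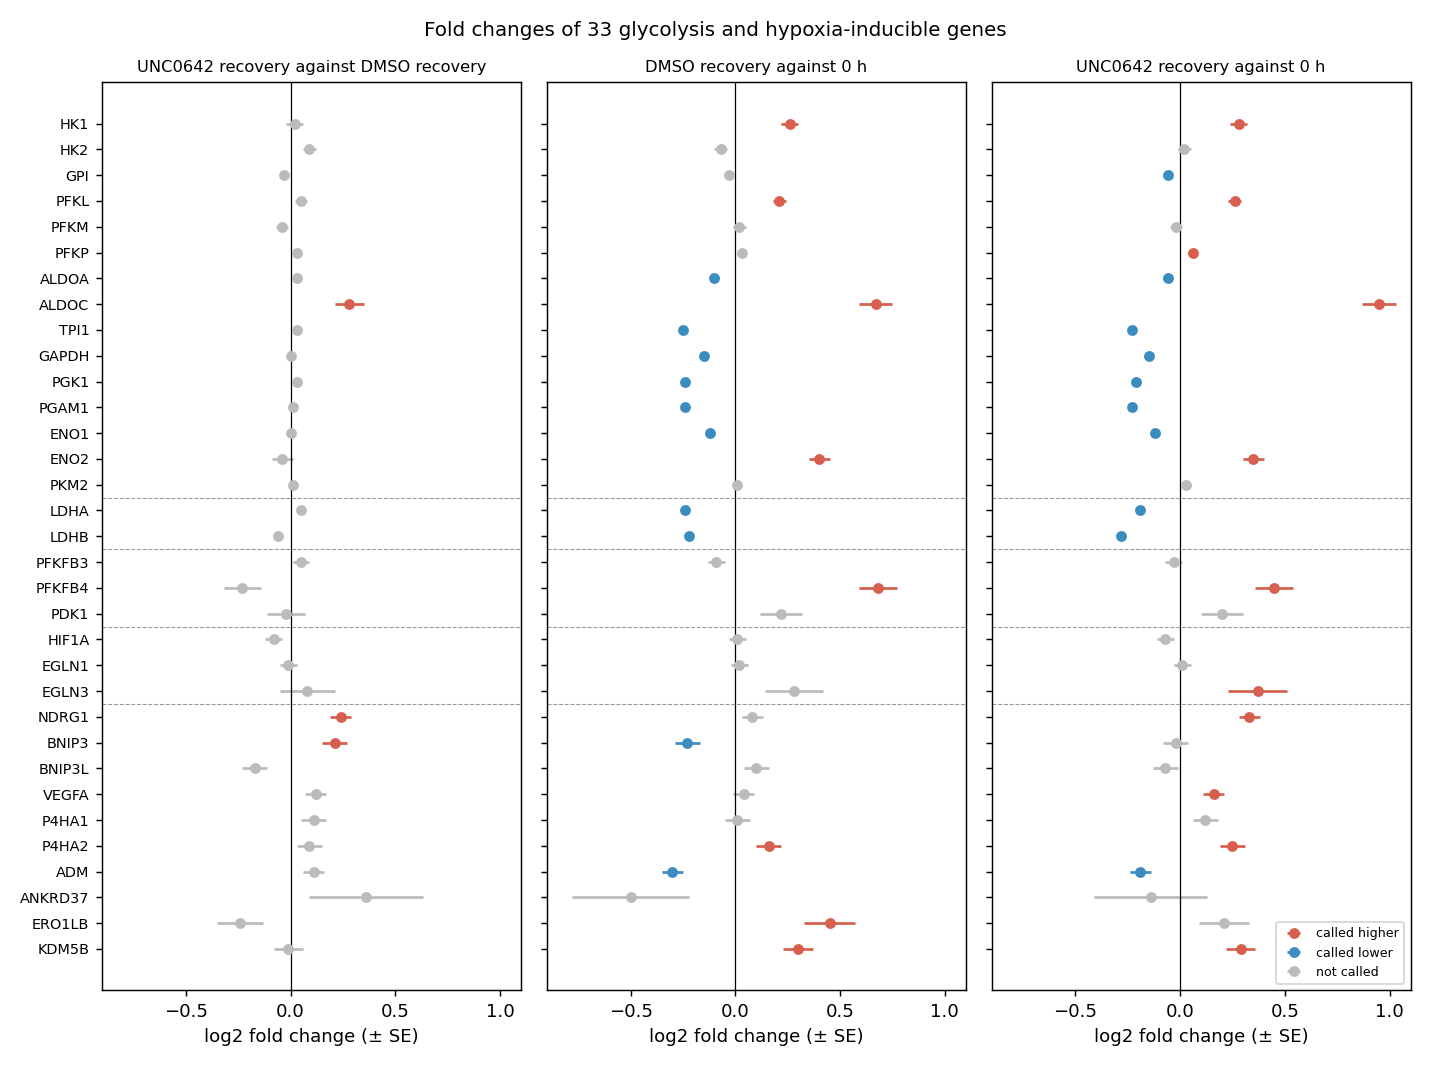
Log2 fold change (± SE, horizontal axis) of 33 genes (vertical axis, grouped by role between dashed lines) for UNC0642 recovery against DMSO recovery, DMSO recovery against 0 h and UNC0642 recovery against 0 h, with 4 libraries per group. Red points were called higher and blue points lower: 3 and 0 genes in the left panel, 8 and 10 in the middle one and 11 and 10 in the right one.

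After DMSO recovery, the glycolytic genes called lower were the more abundant ones. By length-normalised level (mean FPKM over 12 libraries), the 8 glycolytic and lactate dehydrogenase genes lower after DMSO recovery ranged from 197.6 FPKM for PGK1 to 3814 FPKM for GAPDH. The 4 higher ones ranged from 10.71 FPKM for ALDOC to 51.77 FPKM for PFKL. After UNC0642 recovery the ranges met, with higher genes at 10.71 to 171 FPKM (PFKP) and lower ones at 167.9 (GPI) to 3814 FPKM. Of the 9 most abundant genes of the list, PKM2 (864.1 FPKM) was the one that was not called after DMSO recovery. The genes lower after DMSO recovery were also short, with mean transcript lengths of 1310 to 2423 bases against 1651 to 3601 bases for the higher ones. With an added correction for gene length, chosen after the data were seen, 13 of the 33 genes were lower and 8 higher after DMSO recovery. Over all genes tested, 3042 were lower and 2639 higher in that fit, where the main test called 2766 and 2851. Abundant genes have small errors here, with SE of 0.02 on the log2 scale for GAPDH and 0.08 for ALDOC, so that the 6.41% fall of ALDOA was called.

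**Figure D2:**
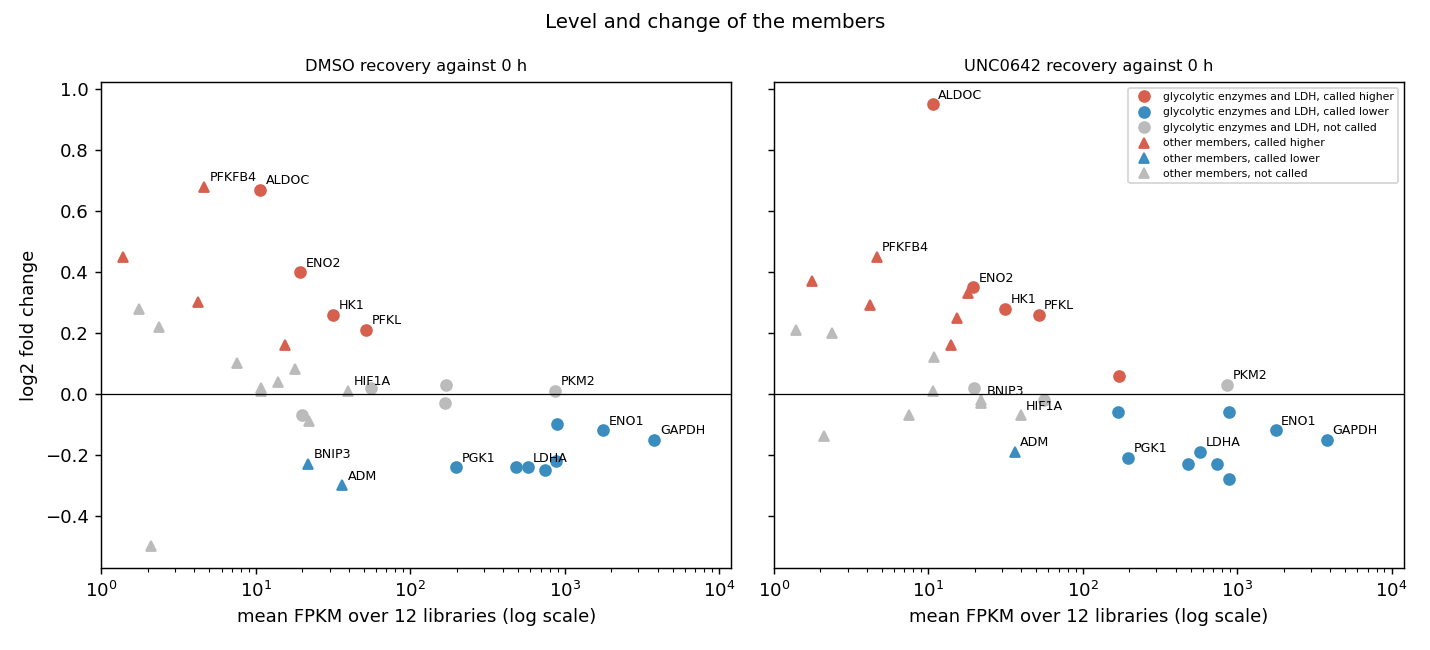
Log2 fold change (vertical axis) against mean FPKM over 12 libraries (horizontal axis, log scale) for the 33 genes, after DMSO recovery (left) and UNC0642 recovery (right), each against 0 h. Of the circles in the left panel (glycolytic enzymes and lactate dehydrogenase, with triangles for the other genes), those called lower lie between 197.6 and 3814 FPKM and those called higher between 10.71 and 51.77 FPKM.

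Promoter windows of 2 genes that rose in both recovery groups, ALDOC and ENO2, and of 2 that fell in both, ENO1 and PGK1, are shown to compare their HIF motif content, since all 4 are textbook HIF target genes. ENO1 and ENO2 are isozymes of the same step. Each is the 250 bases before the gene start in RefSeq (build GRCh38.p14, which differs from the hg18 build of the deposited files, so the windows carry names over by gene symbol), written 5′ to 3′ on the gene's strand. Capitals mark ACGTG, the core letters of most HIF binding sequences, its variant GCGTG, and the reverse complements of both, so that both strands were searched. Where a motif overlaps a reverse complement, as in the first capitals of ALDOC, 1 run holds both and counts as 2 matches.
ALDOC (chr17:28576896-28577145, minus strand): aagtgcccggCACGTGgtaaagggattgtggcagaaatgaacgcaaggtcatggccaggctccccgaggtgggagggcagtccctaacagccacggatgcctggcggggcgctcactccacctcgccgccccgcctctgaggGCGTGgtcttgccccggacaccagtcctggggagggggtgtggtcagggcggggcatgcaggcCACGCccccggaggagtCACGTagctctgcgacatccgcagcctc
ENO2 (chr12:6914330-6914579, plus strand): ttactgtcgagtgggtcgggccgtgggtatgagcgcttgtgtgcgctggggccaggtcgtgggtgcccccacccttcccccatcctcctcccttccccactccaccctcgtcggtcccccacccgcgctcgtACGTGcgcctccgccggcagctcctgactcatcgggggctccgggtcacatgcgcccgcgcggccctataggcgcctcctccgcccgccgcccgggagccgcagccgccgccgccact
ENO1 (chr1:8878687-8878936, minus strand): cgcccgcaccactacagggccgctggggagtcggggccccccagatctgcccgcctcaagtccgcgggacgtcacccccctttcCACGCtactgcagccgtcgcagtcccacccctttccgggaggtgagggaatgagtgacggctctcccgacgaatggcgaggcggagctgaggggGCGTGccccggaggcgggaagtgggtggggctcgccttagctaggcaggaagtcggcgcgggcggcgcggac
PGK1 (chrX:78103998-78104247, plus strand): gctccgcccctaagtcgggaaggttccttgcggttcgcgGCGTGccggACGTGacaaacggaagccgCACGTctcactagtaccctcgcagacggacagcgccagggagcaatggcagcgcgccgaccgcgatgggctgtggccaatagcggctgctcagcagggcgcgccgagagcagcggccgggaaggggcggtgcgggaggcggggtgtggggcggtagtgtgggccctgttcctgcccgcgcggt
The ALDOC window holds 5 matches, which begin 240, 239, 108, 45 and 28 bases before the start, and the ENO2 window holds 1, at 118 bases. The ENO1 window holds 2, at 166 and 72 bases, and the PGK1 window holds 3, at 211, 202 and 183 bases. Motif letters thus stood in windows of genes that rose and of genes that fell. Of the 34 listed genes, 31 matched the RefSeq promoter table, with 54 windows, of which 59.3% held a match, and 43.2% of all 35116 windows of the same length in the table did. Among genes with a window, 7 of 8 called higher after DMSO recovery, 8 of 10 called lower and 10 of 12 not called had a match in at least 1 window. These counts include windows at other starts of a gene, and 8 genes, GAPDH, PGAM1, TPI1, PFKFB4, P4HA2, GPI, PFKP and PKM2, had no window at the gene start of the RefSeq gene table. With the 23 windows at that start alone, 78.3% held a match, in 5 of 6 genes called higher, 6 of 7 called lower and 6 of 9 not called. The 43.2% covers windows at all starts. No share over all genes was computed for windows at the gene start alone, so the 78.3% has no like value beside it. A match is a description of letters and not a binding site.

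Among the first steps of glycolysis, HK1 and PFKL rose in both recovery groups, while HK2 and PFKM were not called in either. HK1, the broadly expressed hexokinase that phosphorylates glucose, averaged 117.1 ± 5.02 CPM after UNC0642 recovery, 115.9 ± 2.9 CPM after DMSO recovery and 96.61 ± 4.72 CPM at 0 h (SD, n = 4 each). It was 1.2-fold higher after DMSO recovery than at 0 h (log2 fold change 0.26 ± 0.04, SE, adjusted p = 8.06e-07, edgeR). HK2, the hexokinase that HIF1A and many tumours induce, was not called in either recovery comparison, at 141.3, 132.7 and 139.8 CPM on average after UNC0642 recovery, after DMSO recovery and at 0 h. Its log2 fold change after DMSO recovery was -0.07 (adjusted p = 0.0645, edgeR), and it was called lower without 0 h replicate 1 (-0.09, adjusted p = 0.047), without 0 h replicate 4 (-0.10, adjusted p = 0.0254) and with the gene length correction (-0.15, adjusted p = 0.000229). With that correction HK2 was also called higher after UNC0642 than after DMSO recovery (0.11, adjusted p = 0.0335). The share of HK1 in the summed FPKM of both hexokinases was 62.4% after UNC0642 recovery, 63.6% after DMSO recovery and 58% at 0 h, without overlap between either recovery group and 0 h. GPI, which turns glucose 6-phosphate into fructose 6-phosphate, was not called after DMSO recovery (log2 fold change -0.03 ± 0.02) and was called 4.40% lower after UNC0642 recovery (adjusted p = 0.0173, edgeR). Of the phosphofructokinases, which commit the sugar to glycolysis, the liver-type PFKL rose 1.16-fold after DMSO recovery and 1.2-fold after UNC0642 recovery, each against 0 h (adjusted p = 4.11e-06 and 8.06e-08, edgeR). The muscle-type PFKM had log2 fold changes of 0.02 and -0.02 and the platelet-type PFKP of 0.03 and 0.06, and of these 4 values that of PFKP after UNC0642 recovery was called (adjusted p = 0.0411). The PFKP call was lost without 0 h replicate 2 or 3 or UNC0642 replicate 3 or 4, and the GPI call without 0 h replicate 3 or UNC0642 replicate 2. Over 22 alternatives the adjusted p reached 0.9 for PFKP, without the COL1A2 libraries, and 0.867 for GPI, on log2 FPKM.

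ALDOC had the largest change of the list, seen after UNC0642 recovery. It encodes aldolase C, the brain-type isozyme of the enzyme that splits fructose 1,6-bisphosphate. It had 19.2, 21.06, 22.36 and 21.4 CPM after UNC0642 recovery, 18.1, 16.51, 17.59 and 16.82 CPM after DMSO recovery and 12.21, 9.283, 10.99 and 11.01 CPM at 0 h. The 3 groups did not overlap, with the UNC0642 libraries highest and the 0 h libraries lowest. The log2 fold change was 0.67 ± 0.08 after DMSO recovery (1.59-fold, adjusted p = 4.87e-08) and 0.95 ± 0.08 after UNC0642 recovery (1.93-fold, adjusted p = 1.22e-11), each against 0 h in edgeR. Both calls held in every alternative run. ALDOA, the main aldolase, had 1278, 1266, 1284 and 1328 CPM after UNC0642 recovery, 1237, 1234, 1297 and 1270 CPM after DMSO recovery and 1353, 1359, 1348 and 1324 CPM at 0 h. The DMSO libraries lay below those at 0 h, and 1 UNC0642 library reached into the range at 0 h. The falls of ALDOA (6.41% and 4.23%) were lost with library totals in place of TMM factors (log2 fold changes -0.04 and -0.00), on log2 FPKM and without the COL1A2 libraries (-0.07 and -0.06, 1 library at 0 h), and that after UNC0642 recovery also with the gene length correction (-0.03) and within the short-gap libraries. ALDOC made up 1.52 ± 0.094% of the summed FPKM of both aldolases after UNC0642 recovery, 1.29 ± 0.059% after DMSO recovery and 0.76 ± 0.086% at 0 h (SD, n = 4 each). ALDOA made up the rest, 98.5% after UNC0642 recovery, 98.7% after DMSO recovery and 99.2% at 0 h.

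**Figure D3:**
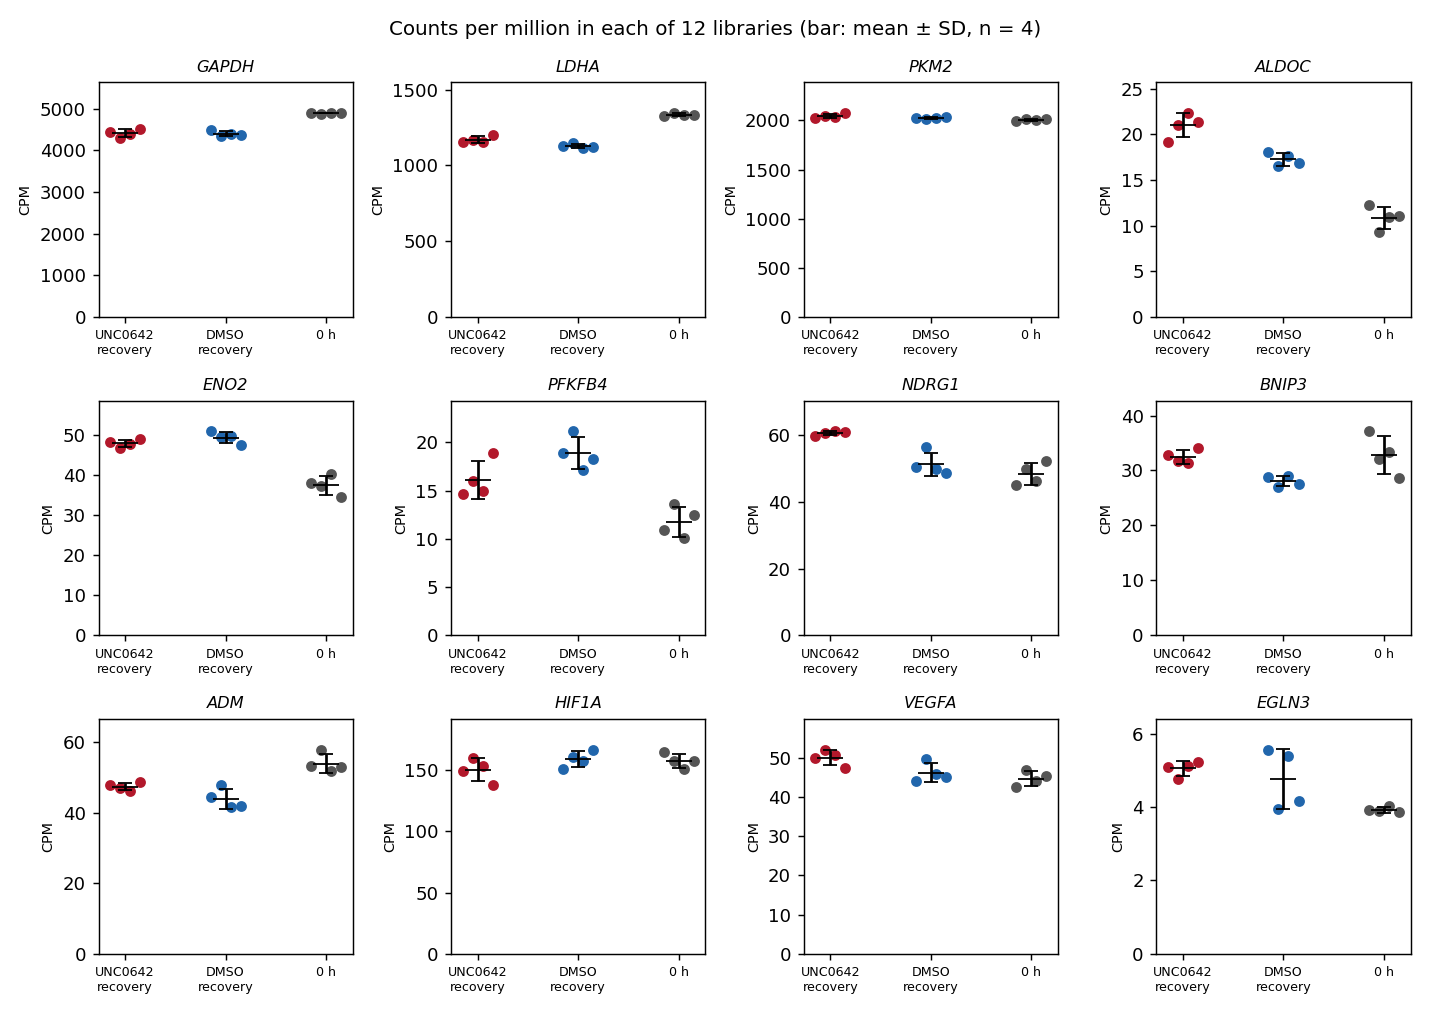
TMM-scaled CPM (vertical axis, from 0) in each library of the UNC0642 recovery, DMSO recovery and 0 h groups for 12 genes, with the mean and SD of 4 libraries. ALDOC, ENO2 and PFKFB4 lie above their 0 h values in all 8 recovery libraries, and GAPDH, LDHA and ADM below them.

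The enzymes that follow, from triose phosphate to pyruvate, were lower in both recovery groups except for ENO2 and PKM2. TPI1, which interconverts the triose phosphates, was 16.2% lower after DMSO recovery and 14.6% lower after UNC0642 recovery than at 0 h, and PGK1, the first enzyme of the chain to make ATP, 15.3% and 13.6% lower. PGAM1, the phosphoglycerate mutase, was 15.5% and 15% lower. GAPDH, the glyceraldehyde 3-phosphate dehydrogenase often used as a constant reference gene, had 4428, 4302, 4401 and 4514 CPM after UNC0642 recovery, 4481, 4346, 4393 and 4364 CPM after DMSO recovery and 4891, 4881, 4886 and 4896 CPM at 0 h. All 8 recovery libraries lay below the 4 libraries at 0 h, by 9.76% (adjusted p = 3.03e-09) after UNC0642 recovery and 10.1% (adjusted p = 1.74e-09) after DMSO recovery in edgeR. GAPDH and PGAM1, among others, have processed pseudogenes of nearly the same sequence, so their exact levels are uncertain. The calls for TPI1, GAPDH, PGK1, PGAM1 and ENO1 held in every alternative run, in both recovery comparisons.

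The enolases, which make phosphoenolpyruvate, moved in opposite directions. ENO1, the common form, was 8.19% lower after DMSO recovery and 8.02% lower after UNC0642 recovery than at 0 h. ENO2, the neuronal form, had 48.06, 46.72, 47.68 and 48.91 CPM after UNC0642 recovery, 50.8, 49.39, 49.58 and 47.31 CPM after DMSO recovery and 37.96, 37.19, 40.12 and 34.36 CPM at 0 h. Both recovery groups lay above 0 h without overlap, and they overlapped with each other. ENO2 rose 1.32-fold after DMSO recovery (log2 fold change 0.40 ± 0.05, adjusted p = 6.3e-08) and 1.28-fold after UNC0642 recovery (0.35 ± 0.05, adjusted p = 4.15e-07, both edgeR). Its share of the summed enolase FPKM was 1.19% after UNC0642 recovery, 1.22% after DMSO recovery and 0.856% at 0 h. PKM2, the name the files give to the muscle-type pyruvate kinase gene PKM, had 2024, 2045, 2038 and 2077 CPM after UNC0642 recovery, 2028, 2013, 2029 and 2035 CPM after DMSO recovery and 1996, 2013, 2000 and 2020 CPM at 0 h. These values spanned a narrow range, and the log2 fold changes were 0.01 ± 0.02 after DMSO recovery and 0.03 ± 0.02 after UNC0642 recovery. With library totals in place of TMM factors they became 0.07 and 0.09 and were called higher, and the median of all genes was then 0.060 and 0.066.

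Both lactate dehydrogenase genes were lower in both recovery groups. LDHA, the muscle-type subunit that HIF1A induces, had 1151, 1169, 1153 and 1201 CPM after UNC0642 recovery, 1129, 1148, 1115 and 1120 CPM after DMSO recovery and 1327, 1346, 1330 and 1335 CPM at 0 h. LDHB, the heart-type subunit, had 982.9, 955.8, 967.9 and 1005 CPM after UNC0642 recovery, 1032, 1019, 1015 and 1004 CPM after DMSO recovery and 1190, 1186, 1192 and 1181 CPM at 0 h. All recovery libraries lay below 0 h for both genes. After DMSO recovery LDHA was 15.5% and LDHB 14.3% lower than at 0 h, and after UNC0642 recovery LDHA was 12.4% and LDHB 17.6% lower. Against DMSO recovery, UNC0642 recovery gave log2 fold changes of 0.05 ± 0.02 for LDHA (adjusted p = 0.137) and -0.06 ± 0.02 for LDHB (adjusted p = 0.0934), neither of which was called in edgeR. LDHB was called lower in 4 of 22 alternatives. These were the length-gap class as a covariate (-0.06), leaving out UNC0642 replicate 4 (-0.07), DESeq2 (-0.06) and the gene length correction (-0.06). The share of LDHA in the summed FPKM of both genes was 40.7 ± 0.37% after UNC0642 recovery, 38.9 ± 0.28% after DMSO recovery and 39.3 ± 0.22% at 0 h (SD, n = 4 each). The UNC0642 libraries lay above both other groups in this share, and the DMSO and 0 h libraries overlapped. No test was run on the shares. Together, the 15 glycolytic enzymes and both lactate dehydrogenase genes took 1.67% to 1.719% of the library counts after UNC0642 recovery, 1.664% to 1.679% after DMSO recovery and 1.753% to 1.761% at 0 h.

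**Figure D4:**
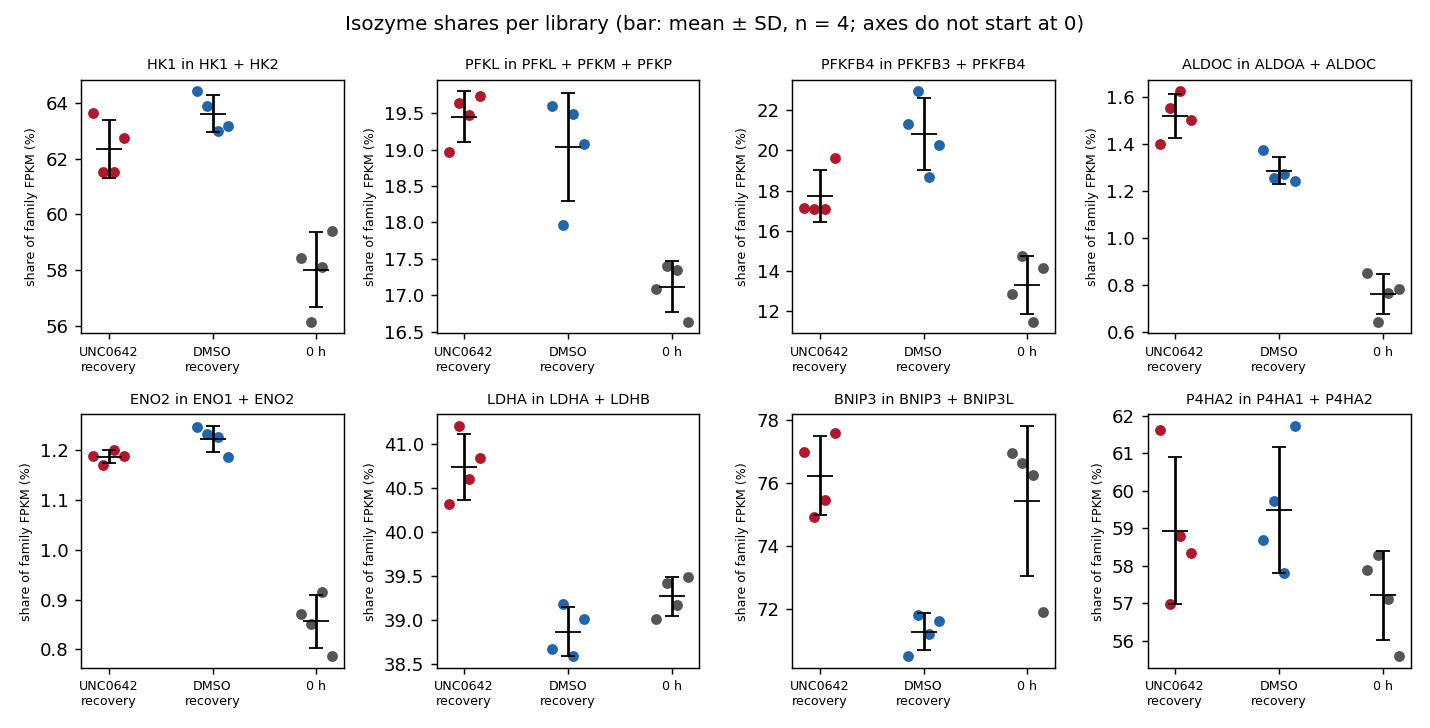
Share of 1 isozyme in the summed FPKM of its family (vertical axis, percent, not starting at 0) in each library of the UNC0642 recovery, DMSO recovery and 0 h groups, with the mean and SD of 4 libraries. The shares of HK1, PFKL, PFKFB4, ALDOC and ENO2 lie above 0 h in both recovery groups, and that of LDHA is highest after UNC0642 recovery at 40.7%.

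Of the regulators of flux, PFKFB4 was the one that changed. PFKFB3 and PFKFB4 encode bifunctional enzymes that set the level of fructose 2,6-bisphosphate, the activator of phosphofructokinase. PFKFB4 had 14.6, 16.01, 14.96 and 18.87 CPM after UNC0642 recovery, 18.89, 21.13, 17.14 and 18.29 CPM after DMSO recovery and 10.88, 13.56, 10.08 and 12.48 CPM at 0 h. Both recovery groups lay above 0 h without overlap, and UNC0642 replicate 4 lay within the range of the DMSO libraries. PFKFB4 rose 1.6-fold after DMSO recovery (log2 fold change 0.68 ± 0.09, adjusted p = 3.79e-07) and 1.36-fold after UNC0642 recovery (0.45 ± 0.09, adjusted p = 0.000206, both edgeR). The second of these calls was lost without the COL1A2 libraries (0.29, adjusted p = 0.183), with 0 h replicate 4 alone left at 0 h. The difference between the recovery groups was -0.23 ± 0.09 and was not called (adjusted p = 0.138, edgeR). It was called without UNC0642 replicate 4 (-0.31, adjusted p = 0.0363). PFKFB3 had log2 fold changes of -0.09 ± 0.04 and -0.03 ± 0.04 against 0 h after DMSO and UNC0642 recovery, and neither was called. The PFKFB3 value for DMSO recovery was called lower in 4 of 22 alternatives, at -0.09 with the 8 libraries compared alone, at -0.10 without 0 h replicate 1 or DMSO replicate 3 (adjusted p = 0.0422 each) and at -0.13 with the gene length correction (adjusted p = 0.00501). PFKFB4 took 17.7% of the summed FPKM of both genes after UNC0642 recovery, 20.8% after DMSO recovery and 13.3% at 0 h. PDK1, the kinase that switches off pyruvate dehydrogenase, averaged 10.98 CPM after UNC0642 recovery, 11.16 CPM after DMSO recovery and 9.572 CPM at 0 h and was not called (log2 fold changes 0.22 ± 0.10 and 0.20 ± 0.10 after DMSO and UNC0642 recovery, adjusted p = 0.0578 and 0.0783). The PDK1 value for DMSO recovery passed the threshold under 5 of 22 alternatives at log2 fold changes of 0.19 to 0.28, and that for UNC0642 recovery under 3 at 0.18 to 0.26. Leaving out 0 h replicate 4 was among them for both, and DMSO replicate 4 for DMSO recovery.

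The transcript of HIF1A itself, the oxygen-regulated subunit, was not called in any of the 3 comparisons. HIF1A had 149.6, 160.4, 153.9 and 137.9 CPM after UNC0642 recovery, 150.8, 161.1, 157.6 and 166.7 CPM after DMSO recovery and 165.1, 157.8, 151.2 and 157.8 CPM at 0 h. The groups overlapped. The log2 fold change was 0.01 for DMSO recovery against 0 h, with a 95% interval of -0.07 to 0.09, and -0.08 for UNC0642 against DMSO recovery, with an interval of -0.16 to -0.00 (adjusted p = 0.258, edgeR). Against 0 h it was -0.07 after UNC0642 recovery (adjusted p = 0.125, edgeR), and it was called lower without UNC0642 replicate 2 (-0.10, adjusted p = 0.0277) and with the gene length correction (-0.10, adjusted p = 0.0204). EGLN1, the main prolyl hydroxylase that marks HIF1A, had log2 fold changes between -0.01 and 0.02 over the 3 comparisons. EGLN3, the prolyl hydroxylase that HIF itself induces, had 5.098, 4.771, 5.127 and 5.227 CPM after UNC0642 recovery, 5.557, 3.959, 5.396 and 4.168 CPM after DMSO recovery and 3.929, 3.882, 4.033 and 3.856 CPM at 0 h. The UNC0642 libraries lay above 0 h, and the DMSO libraries were split, with replicates 2 and 4 close to 0 h. EGLN3 was called after UNC0642 recovery (log2 fold change 0.37 ± 0.14, adjusted p = 0.0323) and not after DMSO recovery (0.28 ± 0.14, adjusted p = 0.107), and the difference between these groups was not called either (0.08 ± 0.13, adjusted p = 0.821, all edgeR). The EGLN3 call was lost in 10 of 22 alternatives, which included leaving out 0 h replicate 1, 2 or 4 or UNC0642 replicate 1, 3 or 4, at log2 fold changes of 0.34 to 0.39 and adjusted p up to 0.379.

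Of the genes listed as HIF targets of other function, 10 were described, and those called moved in both directions. Whether HIF acts on each of them in these cells was not tested. After DMSO recovery KDM5B, P4HA2 and ERO1LB were higher and ADM and BNIP3 lower than at 0 h. After UNC0642 recovery KDM5B, P4HA2, NDRG1 and VEGFA were higher and ADM lower than at 0 h. That is 50% of the 10 called in each comparison, where 44.1% and 47.0% of all genes tested were called. ADM, which encodes the vasodilator peptide adrenomedullin, had 47.86, 47.16, 46.09 and 48.64 CPM after UNC0642 recovery, 44.51, 47.81, 41.76 and 42.02 CPM after DMSO recovery and 53.19, 57.84, 51.94 and 52.94 CPM at 0 h. All recovery libraries lay below 0 h. ADM was 18.7% lower after DMSO recovery (log2 fold change -0.30 ± 0.05, adjusted p = 8.67e-06) and 12.2% lower after UNC0642 recovery (-0.19 ± 0.05, adjusted p = 0.00189, both edgeR). The second call was lost without the COL1A2 libraries (-0.16, adjusted p = 0.205, 1 library at 0 h) and within the short-gap libraries (-0.12, adjusted p = 0.197). ERO1LB, an oxidase that helps proteins fold in the endoplasmic reticulum, had 6.187, 7.129, 7.241 and 6.327 CPM after UNC0642 recovery, 8.467, 6.882, 8.038 and 8.188 CPM after DMSO recovery and 4.956, 5.964, 6.188 and 6.1 CPM at 0 h. The DMSO libraries lay above 0 h, and the UNC0642 libraries overlapped with both. ERO1LB was called after DMSO recovery (0.45 ± 0.12, adjusted p = 0.00175) and not after UNC0642 recovery (0.21 ± 0.12, adjusted p = 0.134), and the difference between the recovery groups was not called (-0.24 ± 0.11, adjusted p = 0.254, all edgeR). The ERO1LB call was lost without the COL1A2 libraries, with 1 library left at 0 h (0.33, adjusted p = 0.25), and within the short-gap libraries, with 1 DMSO library and a fold change as large (0.46, adjusted p = 0.0874).

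VEGFA, the growth factor of blood vessels, had 49.84, 51.99, 50.79 and 47.48 CPM after UNC0642 recovery, 43.98, 49.58, 45.87 and 45.06 CPM after DMSO recovery and 42.43, 46.92, 44.01 and 45.36 CPM at 0 h. The UNC0642 libraries lay above 0 h, and the DMSO libraries overlapped with both other groups. VEGFA was called after UNC0642 recovery (log2 fold change 0.16 ± 0.05, adjusted p = 0.00692) and not after DMSO recovery (0.04 ± 0.05, adjusted p = 0.511) against 0 h, with the difference between the recovery groups at 0.12 ± 0.05 and not called (adjusted p = 0.17, all edgeR). Without the COL1A2 libraries, with 1 library left at 0 h, the VEGFA call was lost at the same 0.16 (adjusted p = 0.202), and it was also lost within the short-gap libraries (0.12, adjusted p = 0.186). KDM5B, a demethylase of histone H3 lysine 4, rose by 0.30 ± 0.07 and 0.29 ± 0.07 on the log2 scale after DMSO and UNC0642 recovery (adjusted p = 0.000873 and 0.00109, edgeR). P4HA2, a subunit of the collagen prolyl hydroxylase, rose by 0.16 ± 0.06 and 0.25 ± 0.06 (adjusted p = 0.0211 and 0.000547, edgeR). The P4HA2 call after DMSO recovery was lost without 0 h replicate 3 or DMSO replicate 4. Without the COL1A2 libraries, with 1 library left at 0 h, the P4HA2 calls were lost at 0.15 after DMSO recovery and 0.20 after UNC0642 recovery and the KDM5B call after UNC0642 recovery at 0.27. Within the short-gap libraries both KDM5B calls were lost, at 0.27 after DMSO recovery (adjusted p = 0.102) and 0.16 after UNC0642 recovery (adjusted p = 0.239). The P4HA2 call after DMSO recovery was lost within the long-gap (0.17, adjusted p = 0.0675) and the short-gap libraries (0.14, adjusted p = 0.317), and that after UNC0642 recovery within the long-gap libraries (0.15, adjusted p = 0.129). P4HA1, the partner isoform, BNIP3L, a mitophagy receptor, and ANKRD37, an ankyrin repeat gene induced by hypoxia, were not called against 0 h. P4HA1 after UNC0642 recovery (0.12, adjusted p = 0.0844, edgeR) was called higher in 3 of 22 alternatives, at 0.15 to 0.18. Leaving out 0 h replicate 4 was among them (adjusted p = 0.042). BNIP3L after DMSO recovery was called higher with library totals in place of TMM factors (0.15, adjusted p = 0.0414). ANKRD37 had 1.718 CPM on average over 12 libraries and a log2 fold change of -0.50 ± 0.28 after DMSO recovery, with a 95% interval of -1.07 to 0.06.

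UNC0642 recovery was set against DMSO recovery to ask what giving the inhibitor during the restriction left behind 24 h after its removal. Among the 33 genes, ALDOC, NDRG1 and BNIP3 were higher after UNC0642 recovery, by 1.16-fold to 1.22-fold, and none was called lower. That makes 9.09% of the genes, where 4.58% of all genes tested were called (2.06% higher and 2.53% lower). At an unadjusted p under 0.05 in edgeR, 7 of the 33 were higher and 5 lower. Of all 12741 genes tested, 1035 were higher and 1153 lower at that threshold. By adjusted p, limma-voom called 0 of the 33 lower and DESeq2 called 1 lower, LDHB (-0.06, adjusted p = 0.0468). The groups did not overlap in 6 of the 33 genes, where 10.5% of all genes tested did not overlap. The median log2 fold change was 0.028 for the 33 genes and -0.001 for all genes tested. Of the 15 glycolytic steps and both lactate dehydrogenase genes, 1 was called, and the 16 others changed by between -3.89% and 6.48%. GAPDH, for example, had a log2 fold change of 0.00 with a 95% interval of -0.03 to 0.04, and ENO1 the same interval.

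NDRG1, a stress-responsive gene that is induced by hypoxia and iron loss, had 59.89, 60.82, 61.21 and 60.96 CPM after UNC0642 recovery, 50.54, 56.46, 49.86 and 48.79 CPM after DMSO recovery and 45.03, 50.07, 46.38 and 52.24 CPM at 0 h. The UNC0642 libraries lay close together and above all others, and the DMSO and 0 h libraries overlapped. NDRG1 was 1.18-fold higher after UNC0642 than after DMSO recovery (log2 fold change 0.24 ± 0.05, adjusted p = 0.00133, edgeR). The difference was 0.24 within the long-gap libraries (adjusted p = 0.0282) and 0.26 within the short-gap libraries (adjusted p = 0.185), where the call was lost with 2 UNC0642 libraries against 1 DMSO library. Against 0 h, NDRG1 rose by 0.33 ± 0.05 after UNC0642 recovery (adjusted p = 1.94e-06), which was lost without the COL1A2 libraries (0.20, adjusted p = 0.0966), where 0 h replicate 4, the highest of the 0 h libraries for NDRG1, is the one left at 0 h. Its change after DMSO recovery was 0.08 ± 0.05 and not called (adjusted p = 0.183, edgeR), and was called at 0.14 with library totals and on log2 FPKM.

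ALDOC, whose libraries are given above, was 1.22-fold higher after UNC0642 than after DMSO recovery (log2 fold change 0.28 ± 0.07, adjusted p = 0.017, edgeR), higher in 4 of 4 libraries without overlap. The call was lost without DMSO replicate 2 (0.26, adjusted p = 0.0637), DMSO replicate 4 (0.27, adjusted p = 0.0587) or UNC0642 replicate 3 (0.25, adjusted p = 0.0789), and without the COL1A2 libraries (0.24, adjusted p = 0.192). It was 0.36 within the long-gap libraries (adjusted p = 0.0345) and 0.16 within the short-gap libraries, with 1 DMSO library (adjusted p = 0.727). By Pearson correlation of log2 CPM over the 12 libraries, the genes most like ALDOC were GADD45A (0.98), ITGB4 (0.977) and CALB2 (0.977), a description over libraries that share the 3 groups.

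BNIP3, a receptor that marks mitochondria for removal, had 32.76, 31.7, 31.4 and 34.17 CPM after UNC0642 recovery, 28.79, 27.04, 29 and 27.6 CPM after DMSO recovery and 37.11, 32.07, 33.45 and 28.68 CPM at 0 h. The UNC0642 libraries lay above the DMSO libraries, and 0 h replicate 4 lay among the DMSO libraries. BNIP3 was 1.16-fold higher after UNC0642 than after DMSO recovery (log2 fold change 0.21 ± 0.06, adjusted p = 0.0402) and 14.5% lower after DMSO recovery than at 0 h (-0.23 ± 0.06, adjusted p = 0.00352, both edgeR). These comparisons share the DMSO libraries. After UNC0642 recovery it did not pass the test against 0 h (-0.02, 95% interval -0.14 to 0.11). The UNC0642 call was lost in 12 of 22 alternatives, which included leaving out any DMSO library or UNC0642 replicate 1, 3 or 4, and its log2 fold change stayed between 0.18 and 0.23 with adjusted p between 0.0219 and 0.463. The fall after DMSO recovery became -0.05 without the COL1A2 libraries (adjusted p = 0.784), where 0 h replicate 4, the lowest of the 0 h libraries for BNIP3, is the one left at 0 h. It was -0.11 within the short-gap libraries, with 1 DMSO library (adjusted p = 0.505), and -0.31 within the long-gap ones (adjusted p = 0.00158). On log2 FPKM in limma, with all 12 libraries, the call of the BNIP3 fall after DMSO recovery was also lost (-0.15, adjusted p = 0.05). BNIP3L, its paralog, averaged 24.13 ± 0.984 CPM after UNC0642 recovery and 27.08 ± 1.54 CPM after DMSO recovery (SD, n = 4 each), a difference of -0.17 ± 0.06 that was not called (adjusted p = 0.11, edgeR). BNIP3 made up 76.2 ± 1.2% of the summed FPKM of both genes after UNC0642 recovery, 71.3 ± 0.58% after DMSO recovery and 75.4 ± 2.4% at 0 h.

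Other enzymes of glucose metabolism, 17 of 28 listed being expressed enough to test, gave 5 higher and 3 lower after DMSO recovery and 4 higher and 3 lower after UNC0642 recovery, each against 0 h. That is 47.1% and 41.2% called, where 44.1% and 47.0% of all genes tested were called. PGM1, which leads glucose into and out of glycogen, rose 1.5-fold after DMSO recovery and averaged 51.65 ± 2.03 CPM after UNC0642 recovery, 51.98 ± 1.14 CPM after DMSO recovery and 34.69 ± 1.3 CPM at 0 h (SD, n = 4 each). The mitochondrial phosphoenolpyruvate carboxykinase PCK2 rose 1.43-fold, the liver glycogen phosphorylase PYGL 1.28-fold and the glycogen branching enzyme GBE1 1.27-fold after DMSO recovery. TALDO1 of the pentose phosphate pathway, the glucose 6-phosphatase subunit G6PC3 and the ADP-dependent glucokinase ADPGK fell by 0.26, 0.25 and 0.20 on the log2 scale. After UNC0642 recovery the same 7 genes had log2 fold changes of 0.57 (PGM1), 0.62 (PCK2), 0.33 (PYGL), 0.43 (GBE1), -0.24 (TALDO1), -0.18 (G6PC3) and -0.12 (ADPGK), all called. Against DMSO recovery, UNC0642 recovery gave 0 higher and 1 lower, the transketolase TKT (-0.08 ± 0.02, adjusted p = 0.0265, edgeR). That is 5.88% of the 17 called, where 4.58% of all genes tested were called. The genes around the pyruvate dehydrogenase complex, which feeds pyruvate into the citric acid cycle, gave 3 higher and 3 lower of 10 after DMSO recovery, where 22.4% of all genes tested were higher and 21.7% lower. The inhibitory kinases PDK4, PDK3 and PDK2 rose 2.53-fold, 1.3-fold and 1.14-fold, and the complex subunits PDHA1 and DLD and the activating phosphatase PDP1 fell by 0.30, 0.13 and 0.23 on the log2 scale. PDK4 was scarce, at 1.181, 1.093 and 0.4366 CPM on average after UNC0642 recovery, after DMSO recovery and at 0 h. After UNC0642 recovery 2 of the 10 were higher (PDK4 and PDK3) and 5 lower than at 0 h, where 23.4% of all genes tested were higher and 23.6% lower. PDP1 was the 1 gene of the 10 called between the recovery groups (-0.08 ± 0.02 in UNC0642 against DMSO recovery, adjusted p = 0.0311, edgeR). That is 10% of this list, where 4.58% of all genes tested were called.

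Among 12 other genes of oxygen sensing, 3 were higher and 3 lower after DMSO recovery, and 2 higher and 6 lower after UNC0642 recovery, each against 0 h. That is 50% and 66.7% called, where 44.1% and 47.0% of all genes tested were called. EPAS1, which encodes the HIF2 alpha subunit, had log2 fold changes of 0.59 ± 0.06 after DMSO recovery and 0.66 ± 0.05 after UNC0642 recovery (adjusted p = 1.82e-10 and 8.9e-12, edgeR). It averaged 42.45 ± 1.88 CPM after UNC0642 recovery, 40.39 ± 1.52 CPM after DMSO recovery and 26.78 ± 1.53 CPM at 0 h (SD, n = 4 each). ARNT2, a partner subunit, rose by 0.44 after DMSO recovery and VHL, part of the ligase that marks HIF subunits for destruction, by 0.10, while RBX1 and TCEB1 of the same ligase and the prolyl hydroxylase EGLN2 fell by 0.17, 0.13 and 0.16. CITED2, which competes with HIF1A for its coactivator, was lower after UNC0642 than after DMSO recovery (-0.18 ± 0.05, adjusted p = 0.0323, edgeR). The calls of CITED2, TKT and PDP1, like those of other genes outside the members, were not followed through the alternatives. Of 33 other HIF target genes tested, 15 were higher after each recovery and 4 and 3 were lower after DMSO and UNC0642 recovery, that is 57.6% and 54.5% called, where 44.1% and 47.0% of all genes tested were. Those higher made up 45.5% of the 33 in each comparison, where 22.4% and 23.4% of all genes tested were higher. This list was chosen with earlier results of these data known, and both comparisons share the 0 h libraries. The carbonic anhydrase CA12 rose 2.13-fold after DMSO recovery and 2.56-fold after UNC0642 recovery, the lipase inhibitor ANGPTL4 1.81-fold and 1.65-fold, and PPFIA4, a liprin, 1.4-fold and 1.37-fold. The cytokine MIF fell by 0.19 and 0.21 on the log2 scale after DMSO and UNC0642 recovery. Between the recovery groups, the secreted STC2 (0.17 ± 0.04, adjusted p = 0.00521) was higher after UNC0642 recovery, and KDM3A, a demethylase of histone H3 lysine 9, was lower (-0.35 ± 0.06, adjusted p = 7.87e-05, all edgeR), at 30.5 ± 1.13 CPM after UNC0642 recovery and 38.73 ± 1.81 CPM after DMSO recovery.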

How the data were processed

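RNA of 12 HCT116 libraries was sequenced. The submitters' processing notes name RSEM 1.2.4, Bowtie and the build hg18. The strand setting of the count is not stated there, and reads of a gene and of an antisense partner therefore cannot be told apart. The deposited files hold, per the file headers, the authors' expected counts, FPKM and TPM per gene with lengths and effective lengths (other per-gene values). Expected counts were rounded to whole numbers. The deposited FPKM (fragments scaled to library size and gene length) were used to compare levels between genes and for isozyme shares, and the deposited TPM were not used.

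Genes passing filterByExpr (12741 of 18969) were tested with edgeR 4.0.16 in R 4.3.3 (quasi-likelihood F-test, TMM factors, all 12 libraries in 1 fit, two-sided, Benjamini-Hochberg adjustment). The alternatives used limma 3.58.1 and DESeq2 1.42.0, other scalings and filters, a replicate block, a length-gap covariate and left-out libraries. A gene length correction (lowess, span 0.3) and fits within length-gap classes were added after the data were seen. Replicate pairs had a chi-square of 2.04 to 3.56 per degree of freedom, above sampling noise, and each library was kept as a separate sample. Members and lists were chosen with earlier results of these data known. CPM in every library is given for members called and among the 5 largest changes of a comparison, and for LDHA, PKM2, GAPDH, HIF1A and VEGFA; ALDOA and LDHB were added after their values were seen. Of the other lists, up to 3 called genes per direction and comparison could be named. A gene of those lists that met this rule is not reported here. Promoter windows came from RefSeq (GRCh38.p14), matched by gene symbol.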

Additional observations from a re-analysis of the deposited data

Results flagged for a closer look

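In 99 groups of 4 libraries (33 genes in 3 groups), 2 held a library far from the others, where chance gives about 1 in 20 groups, or 4.95. PFKL in 0 h replicate 4 had 125.9 CPM, below the 129.8 to 130.5 CPM of the other 3 libraries at 0 h, and its gap to the nearest made up 0.856 of the range of the group. PGAM1 in UNC0642 recovery replicate 4 had 754.4 CPM, above the 728.1 to 731.8 CPM of the other 3, with a gap of 0.856 of the range. The PFKL value lay further below both recovery groups than its replicates, and the PGAM1 value remained below all libraries at 0 h.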

How the results depend on the processing

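Of 42 calls of the 33 genes over 3 comparisons, 24 were kept in every alternative run and 18 were lost in at least 1, and no called change turned its direction. With library totals in place of TMM factors, and on log2(FPKM + 1) in limma, 14 genes were called higher after DMSO recovery against 0 h, where the main test called 8, and 67.5% and 68.5% of all calls were then higher, where TMM factors gave 50.8%; for UNC0642 recovery against 0 h these shares were 67.5%, 67.3% and 49.8%. Without the 6 COL1A2 libraries, which leaves 2 UNC0642 libraries, 3 DMSO libraries and 1 library at 0 h, 4 genes were higher in UNC0642 recovery against 0 h and 1 in UNC0642 against DMSO recovery. Within the short-gap libraries, with 1 DMSO library, 5 were higher in DMSO recovery against 0 h and 0 in UNC0642 against DMSO recovery. In the comparisons named for these 2 subsets of libraries, fewer of all genes tested were also called higher than in the main test. The drop in calls was thus not particular to the 33 genes. For UNC0642 against DMSO recovery, LDHB was the 1 gene called lower with the length-gap class as a covariate, with DESeq2 and with the gene length correction. Over all genes tested 348, 284 and 344 were lower in these fits, where the main test called 322. With 1 library left out, counts ran between 1 and 3 higher and 0 and 2 lower for UNC0642 against DMSO recovery, 7 and 9 higher and 10 and 12 lower for DMSO recovery against 0 h, and 9 and 12 higher and 9 and 10 lower for UNC0642 recovery against 0 h. Over all genes tested, 180 to 284 were then higher for UNC0642 against DMSO recovery, where the main test called 262. For DMSO recovery against 0 h 2591 to 2777 were higher, and 2851 in the main test. For UNC0642 recovery against 0 h 2719 to 2825 were higher, and 2983 in the main test. Fewer libraries entered the fits that left some out, and a lone library was assumed to vary like the others; the cause of the other changes was not tested. Replicate numbers did not pair the samples: deviations of same-numbered libraries correlated between -0.0617 and 0.0359. With replicate as a block the counts were 3 higher and 0 lower, 8 and 10, and 11 and 10 in the order of comparisons above, the same as without it. Shares computed from counts without division by length moved in 53 of 57 cases, as the isozymes differ in length, and levels from CPM per kilobase in 27 of 99. Depth limits the scarce genes, with CA9 at 1 to 8 counts and ANKRD37 with an SE of up to 0.28 on the log2 scale.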
